A study of Mus musculus with 16 samples.

Results

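Homeostatic microglia genes were measured in RNA from microglia of WT and AD mice with and without microglial p38α. The set holds 36 genes that are typical of microglia in the healthy adult brain and was chosen by gene symbol. All 36 were listed among the 20267 genes of the deposited table, and all 36 passed the filter of at least 1 CPM in at least 4 libraries (CPM are the reads assigned to a gene, scaled to the same total in every library), as did 13912 genes in total. Each of the 36 was above 1 CPM in every one of the 16 libraries, so no member was tested only because of the group in which it is high.

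The cells came from mice aged 11 months, 4 in each of 4 groups. Microglia are the macrophages that reside in the brain. AD mice carried the APPswe/PS1dE9 transgenes, which make the brain deposit amyloid, and WT mice did not. All 16 mice were C57BL/6J mice with a floxed Mapk14 gene, which encodes p38α, and all were fed tamoxifen (400 ppm) for 4 weeks, starting at 5 months. The p38KO mice also carried Cx3cr1-creERT2+/-, a tamoxifen-activated recombinase expressed from the Cx3cr1 locus, whereas the p38+/+ mice were p38fl/fl without the recombinase. About 10000 live CD11b+/P2ry12+ cells were sorted per mouse from the left hemisphere without olfactory bulb, brainstem and cerebellum, so microglia that had lost surface P2ry12 were not collected. The mice were those with the highest RNA integrity in their group, and the labels name 11 as male and 5 as female, with 2 females in WT p38KO and 1 in each other group. The females were mouse 1 of every group and mouse 2 of WT p38KO.

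Microglia of the healthy brain carry a typical set of surface receptors, transporters and enzymes through which they sense and maintain the tissue, and many of these genes depend on the transcription factor PU.1 and on signalling by TGF-β. Near amyloid plaques, microglia take on a disease-associated state (DAM), in which genes of phagocytosis and lipid handling are high and homeostatic genes are low. p38α is a stress-activated kinase that in macrophages drives the production of inflammatory cytokines. The comparisons therefore ask how homeostatic genes stood in AD mice, in mice without microglial p38α, and in mice with both.

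By the step that 1 read makes in the values, each CPM stood for 12.3 to 16.4 assigned reads, so 3 reads correspond to 0.183 to 0.244 CPM, far below every member. The Mapk14 transcript that encodes isoform 1, which holds the deleted exon, ranged from 47.1 to 82.6 CPM (WT p38+/+) and from 58.5 to 71.0 CPM (AD p38+/+). With p38KO it reached at most 0.214 CPM (WT) and 0.248 CPM (AD), so every library matched its p38 label. The 11 microglia markers summed to between 64158 and 78455 CPM in all libraries, and markers of other cells were far lower. Sums reached at most 6.95 CPM for 10 neuronal markers, 288 CPM for 9 astrocyte markers, 272 CPM for 9 oligodendrocyte markers and 156 CPM for 8 markers of border macrophages. The 6 red blood cell markers ranged up to 3.99 CPM (WT p38+/+), 364 CPM (WT p38KO), 12.9 CPM (AD p38+/+) and 467 CPM (AD p38KO), and their part in the differences with p38KO was not tested. Fewer genes were listed above 0 in the 4 AD p38KO libraries (15448 to 16816) than elsewhere (16954 or more).

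Promoters of 4 members are shown, since PU.1 is a factor on which many genes of healthy microglia depend. Binding of PU.1 was not measured here. Of the 36 members, 26 matched an entry of RefSeq's promoters (GRCm38.p6, 250 bases before to 50 after the start site), with 32 promoters in all. Tmem119 and Upk1b were not matched. The PU.1 core AGGAAGT, searched on both strands, was present in 7 of the 32 member promoters (21.9%), which belong to Cttnbp2nl, Fcrls, Hpgds, Ltc4s, Rapgef5 and Slco2b1, and in 9.35% of all 32851 promoters of that length. The longer site GAGGAAGT, which contains the core, was present in 5 of the 32 and in 3.20% of all promoters, and the SMAD palindrome GTCTAGAC in 0 of the 32 and in 0.213% of all. Below are the promoters of Cd164 (chr10:41519250-41519549, plus strand), Slco2b1 (chr7:99711291-99711590, minus strand), Hpgds (chr6:65144681-65144980, minus strand) and Fcrls (chr3:87263475-87263774, minus strand), each written 5′ to 3′ on the strand of its gene. Capitals mark the PU.1 core, at bases 258 to 264 in Slco2b1 and 203 to 209 in Hpgds, and as its reverse complement at bases 176 to 182 in Fcrls. Cd164 holds no match and is shown because it had the smallest p of the matched members in AD mice. The other 3 were picked for the motif after the values were seen.
Cd164: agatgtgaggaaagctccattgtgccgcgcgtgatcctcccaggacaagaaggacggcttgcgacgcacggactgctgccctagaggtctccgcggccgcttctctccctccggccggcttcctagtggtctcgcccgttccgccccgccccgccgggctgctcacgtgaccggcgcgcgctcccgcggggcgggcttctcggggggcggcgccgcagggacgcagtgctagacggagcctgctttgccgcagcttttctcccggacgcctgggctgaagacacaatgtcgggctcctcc
Slco2b1: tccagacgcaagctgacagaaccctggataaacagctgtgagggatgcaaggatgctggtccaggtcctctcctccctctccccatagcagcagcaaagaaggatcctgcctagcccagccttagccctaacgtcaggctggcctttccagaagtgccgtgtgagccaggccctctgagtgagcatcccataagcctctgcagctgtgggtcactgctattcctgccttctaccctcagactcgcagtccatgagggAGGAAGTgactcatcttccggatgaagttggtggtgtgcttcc
Hpgds: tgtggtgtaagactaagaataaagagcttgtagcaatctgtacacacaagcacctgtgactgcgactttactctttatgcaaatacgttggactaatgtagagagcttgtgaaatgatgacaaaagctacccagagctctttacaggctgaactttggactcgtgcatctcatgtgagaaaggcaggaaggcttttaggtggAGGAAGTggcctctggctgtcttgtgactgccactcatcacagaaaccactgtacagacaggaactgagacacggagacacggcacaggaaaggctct
Fcrls: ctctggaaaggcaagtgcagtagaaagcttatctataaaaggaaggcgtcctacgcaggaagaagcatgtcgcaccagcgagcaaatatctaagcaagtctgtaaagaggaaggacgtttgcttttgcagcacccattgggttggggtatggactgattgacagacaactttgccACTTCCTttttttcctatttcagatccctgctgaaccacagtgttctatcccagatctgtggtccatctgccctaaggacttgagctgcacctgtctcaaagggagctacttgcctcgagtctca

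Together the 36 genes made up 4.75 to 5.90% of each library. To compare levels between genes, CPM were divided by transcript length in kilobases (GENCODE M21 lengths, found for 169 of the 172 member transcripts). On this scale of level per length, Selplg, the glycoprotein ligand of P-selectin, was highest with a mean of 4053 ± 319 CPM per kb (SD over 16 mice). Tmem119, a membrane protein used to mark microglia, followed with 2871 ± 268, the matrix-binding protein Sparc with 2813 ± 239, and the lysophosphatidylserine receptor Gpr34 with 2161 ± 405 CPM per kb. The lowest were Pmepa1, an inhibitor of TGF-β signalling, with 26.6 ± 9.34 and the zinc-finger transcription factor Sall3 with 11.2 ± 4.06 CPM per kb. Of the 35 neighbouring pairs in this order, 33 had ranges over the mice that overlapped, and the ranges were apart between Selplg and Tmem119 and between Gpr34 and Fcrls. The upper gene of the pair was higher in all 16 mice for these 2 pairs and for Pmepa1 over Sall3.

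Most members varied less between mice of a group than the median gene. The median SD within groups was 0.178 on the log2 scale for the members and 0.348 for all genes tested. The members measured at least 50.7 CPM in every library, whereas a tested gene needed only 1 CPM in 4 libraries. Genes of equal level were not compared, so the smaller spread cannot be assigned to the set. Above the value for all genes were 7 members, Slc2a5 (0.949), Marcks (0.919), Sall3 (0.608), Hpgd (0.598), Tanc2 (0.420), Nav2 (0.401) and Pmepa1 (0.395). With this spread, the 95% interval of a fold change between groups of 4 extended 0.252 to either side for the median member on the log2 scale, from 0.158 for the steadiest member to 1.18 for Slc2a5.

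In AD mice most homeostatic genes were slightly below their level in WT mice, and the differences were small. Across both p38 genotypes (the APP/PS1 main effect), 30 of 36 members had a log2 fold change below 0, and their median was -0.12. Among all genes tested 55.7% were below 0, with a median of -0.03. At an unadjusted p under 0.05, 13 members were lower and 0 higher, beside 5.76% of all genes that were lower. The 13 became 10 with median-ratio scaling, 9 with quantile scaling and 15 without WT p38+/+ mouse 2. The shares of all genes were then 5.54%, 5.33% and 5.31%. Past an adjusted p under 0.05 (limma-trend on log2(CPM + 0.5), Benjamini-Hochberg over all genes), 1 of 36 members fell, namely Upk1b, and 1.03% of all genes were called in either direction. In the same comparison, 12 of 16 genes induced by cell dissociation were below 0 (median -0.14), with 0 past the adjusted threshold. At an unadjusted p under 0.05 (limma) 3 of them were lower and 1 was higher, and their part in the difference was not tested. In bulk RNA, fewer cells that express a gene and less RNA per cell cannot be told apart.

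**Figure D1:**
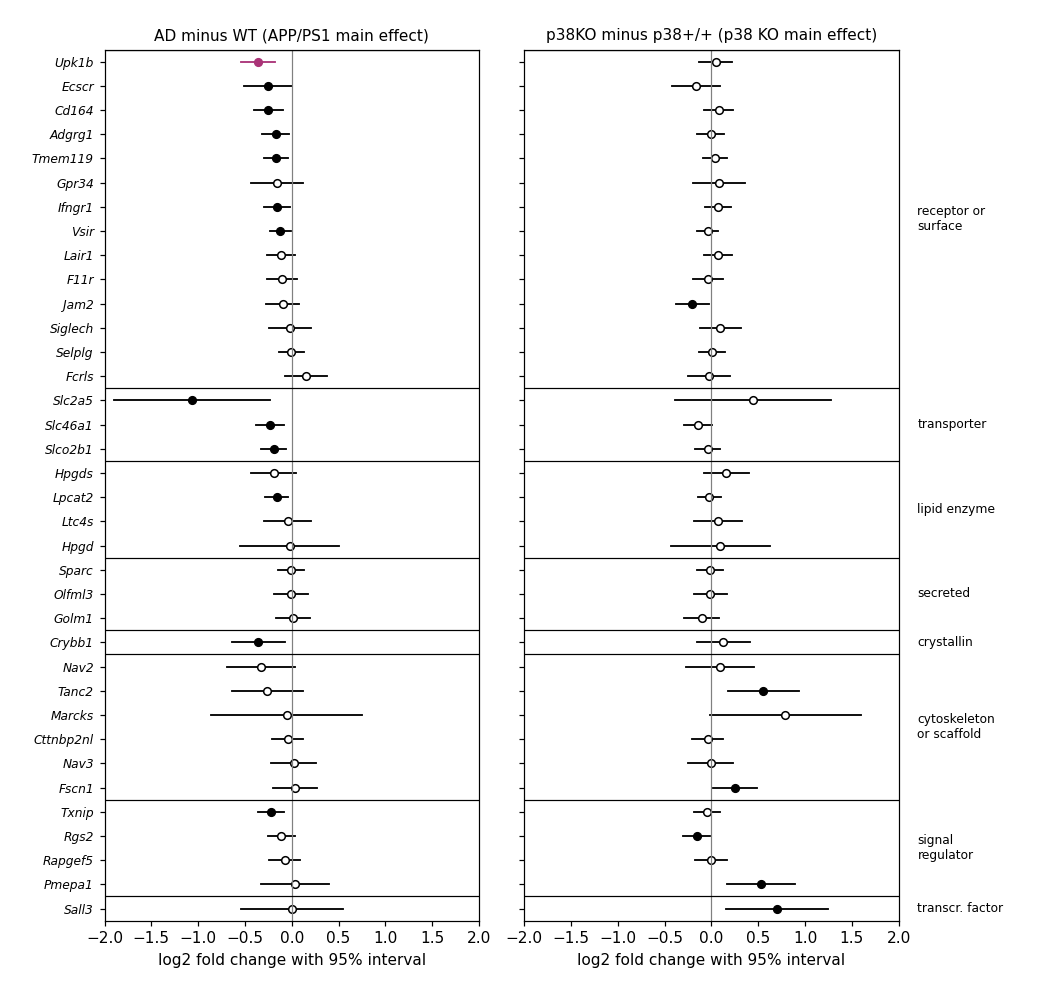
Log2 fold changes of the 36 members with 95% intervals, by role, for AD minus WT mice (left) and p38KO minus p38+/+ mice (right), from the fit over all 16 libraries. Filled points have an unadjusted p under 0.05 and the purple point an adjusted p under 0.05. On the left 30 of 36 points lie below 0, with Upk1b alone past the adjusted threshold, and on the right 17 of 36 do.

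Receptors and surface proteins were the largest role, and 13 of these 14 members were below 0 in AD mice (median log2 fold change -0.14), with 7 at an unadjusted p under 0.05. Upk1b, a tetraspanin best known from the bladder lining (chr16:38773184-38800328, minus strand, mm10), measured 402, 340, 413 and 508 CPM with p38α and 452, 419, 375 and 467 CPM without it in WT mice (mice 1 to 4, as in the lists that follow). The AD mice measured 297, 311, 326 and 354 CPM with p38α and 281, 382, 351 and 317 CPM without it. Of the 8 AD mice, 5 lay below every WT mouse, and AD p38+/+ mouse 4 and AD p38KO mice 2 and 3 lay above the lowest WT mouse. The log2 fold change was -0.36 (SE 0.09, adjusted p = 0.0495, limma), and was -0.36 with p38α and -0.37 without it. The call depends on single mice: it was kept without WT p38+/+ mouse 2 (adjusted p = 0.0150), WT p38KO mouse 3 (0.0444) or AD p38KO mouse 2 (0.0350), and lost without any of the other 13, with adjusted p between 0.0505 and 0.129.

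Cd164, a sialomucin of lysosomes and the cell surface (chr10:41519414-41531048, plus strand), measured 1791, 1192, 1503 and 1517 CPM with p38α and 1638, 1550, 1723 and 1567 CPM without it in WT mice. The AD values were 1138, 1276, 1358 and 1405 CPM with p38α and 1305, 1273, 1384 and 1309 CPM without it. Mice without p38α did not overlap between AD and WT (exact permutation test, two-sided, p = 0.0286, the smallest that 4 against 4 allows), whereas with p38α WT mouse 2 lay among the AD mice. Over all mice the log2 fold change was -0.25 (SE 0.07, unadjusted p = 0.00273, adjusted p = 0.139, limma), and without WT p38+/+ mouse 2 it was -0.30 with an adjusted p of 0.0122.

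Tmem119 (chr5:113793729-113800516, minus strand) measured 7293, 6141, 6889 and 6343 CPM with p38α and 7115, 6443, 7277 and 6770 CPM without it in WT mice. The AD p38+/+ mice measured 5022, 6726, 5729 and 6541 CPM. The 4 AD p38KO mice lay within 6052 to 6092 CPM, below all WT p38KO mice (exact permutation test, p = 0.0286). The spread of these 4 mice was 17.9 CPM (SD), against 785 CPM in AD p38+/+ mice. The log2 fold change over both genotypes was -0.17 (adjusted p = 0.274, limma).

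Gpr34 (chrX:13632089-13640858, plus strand) measured 5845, 2489, 4065 and 5096 CPM with p38α and 4767, 4717, 3905 and 4731 CPM without it in WT mice. The AD mice measured 4426, 3097, 4065 and 3833 CPM with p38α and 3873, 3781, 4226 and 3955 CPM without it. WT p38+/+ mice alone spanned the levels of all other mice, and the log2 fold change was -0.16 (adjusted p = 0.696, limma). Siglech, a sialic-acid-binding receptor (chr7:55768178-55778925, plus strand), measured 1117, 1646, 1035 and 1468 CPM with p38α and 1414, 1106, 1104 and 1583 CPM without it in WT mice. In AD mice the values were 1210, 1116, 1220 and 1206 CPM with p38α and 1566, 1375, 1092 and 1473 CPM without it. All 4 groups overlapped, with a log2 fold change of -0.02 (adjusted p = 0.968, limma).

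A further 4 surface genes had an unadjusted p under 0.05 in AD mice. These were Adgrg1, an adhesion G-protein-coupled receptor (log2 fold change -0.17), Ifngr1, the ligand-binding chain of the interferon-γ receptor (-0.16), Vsir, the immune checkpoint VISTA (-0.12), and Ecscr, a surface protein better known from endothelium (-0.25). Their adjusted p lay between 0.304 and 0.416 (limma). The 8 endothelial markers in the table summed to 143 to 188 CPM in WT and to 169 to 200 CPM in AD libraries, and their part in the level of Ecscr was not tested. The junctional adhesion molecules F11r (-0.11) and Jam2 (-0.10), the collagen-binding inhibitory receptor Lair1 (-0.12) and Selplg (0.00) did not pass either threshold. Fcrls, an Fc-receptor-like scavenger receptor, was the single surface gene above 0 (0.15, adjusted p = 0.615, limma). With p38α its mean CPM were 2091 ± 334 (WT) and 2550 ± 162 (AD), and without p38α 2297 ± 495 (WT) and 2279 ± 337 (AD; SD, n = 4 each).

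The 3 transporters were all below 0 in AD mice at an unadjusted p under 0.05, and none passed the adjusted threshold. Slc46a1, the proton-coupled folate transporter (chr11:78465697-78472059, plus strand), measured 221, 197, 243 and 207 CPM with p38α and 233, 234, 220 and 201 CPM without it in WT mice. AD mice measured 177, 221, 223 and 216 CPM with p38α and 170, 182, 154 and 160 CPM without it, so that every mouse of the other groups but AD p38+/+ mouse 1 lay above all AD p38KO mice. Without p38α the AD difference was -0.41 (SE 0.10, unadjusted p = 0.000647, adjusted p = 0.101, limma) and the groups did not overlap. With p38α it was -0.05 (adjusted p = 0.992). The interaction, which tests whether the AD difference depended on p38α, was -0.36 for Slc46a1 (SE 0.14, unadjusted p = 0.0208, adjusted p = 1.00, limma), and did not pass.

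Slco2b1, an organic anion transporter (chr7:99657804-99711340, minus strand), measured 3047, 3414, 3112 and 3120 CPM with p38α and 3088, 2660, 3225 and 3181 CPM without it in WT mice. Levels in AD mice were 2255, 3055, 2820 and 2862 CPM with p38α and 2782, 2634, 2700 and 2685 CPM without it. AD mice lay at the lower end in both genotypes, but AD p38+/+ mouse 2 and WT p38KO mouse 2 made the groups overlap. The log2 fold change was -0.19 (SE 0.06, adjusted p = 0.210, limma). Slc2a5, the fructose transporter of microglia (chr4:150119283-150144169, plus strand), had the largest AD difference of the set, -1.06 (SE 0.40, adjusted p = 0.274), and the widest spread. It measured 1041 and 1016 CPM in WT p38KO mice 1 and 3, but 282 and 329 CPM in mice 2 and 4 of that group. In the other groups it ranged from 232 to 482 CPM (WT p38+/+), 50.7 to 335 CPM (AD p38+/+) and 93.3 to 343 CPM (AD p38KO).

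**Figure D2:**
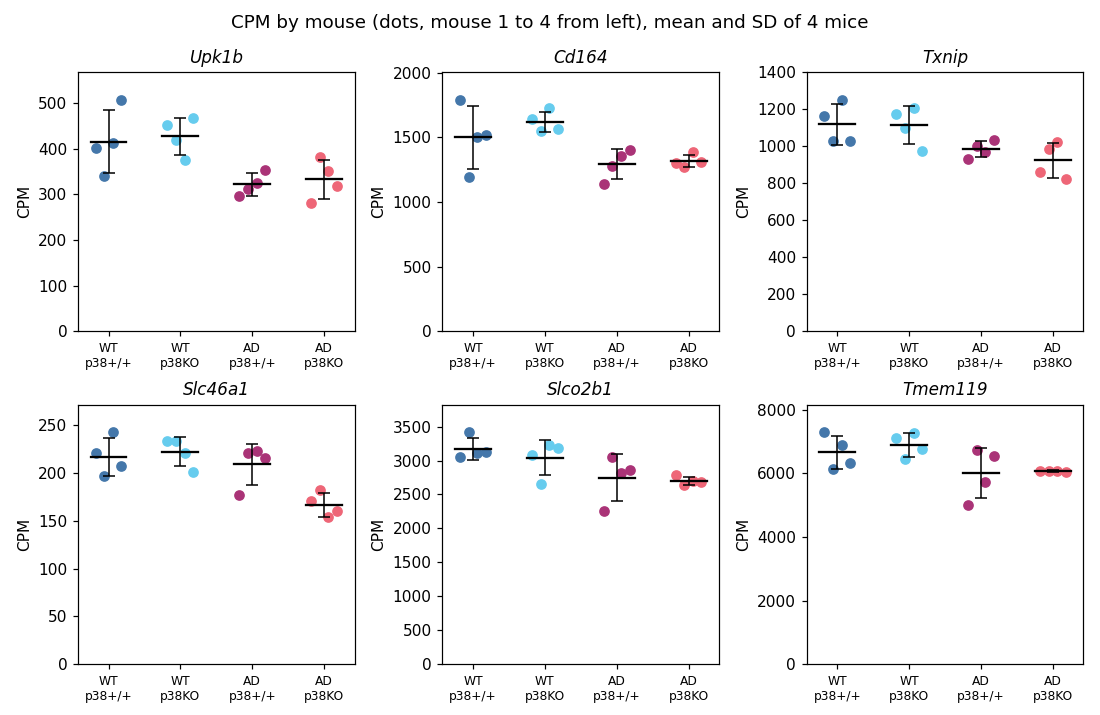
CPM of 6 members in each mouse by group, with mice 1 to 4 from left to right, the mean as a bar and the SD as whiskers. Upk1b, Cd164, Txnip, Slc46a1, Slco2b1 and Tmem119 lie lower in AD than in WT mice by less than a log2 of 0.5, and Slc46a1 is lowest in AD p38KO mice, at 154 to 182 CPM.

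The 4 enzymes of lipid mediators were below 0 in AD mice, 1 of them at an unadjusted p under 0.05. This was Lpcat2, which makes platelet-activating factor and its precursors (log2 fold change -0.16, adjusted p = 0.249, limma). With p38α its mean CPM were 2114 ± 132 (WT) and 1939 ± 186 (AD), and without it 2130 ± 135 (WT) and 1858 ± 74.4 (AD; SD, n = 4 each). Hpgds, which makes prostaglandin D, was at -0.20, Ltc4s, which makes leukotriene C, at -0.05, and Hpgd, which inactivates prostaglandins, at -0.02. Hpgd ranged from 164 to 563 CPM within AD p38+/+ mice alone, so a difference of the size seen for Lpcat2 was not detectable for it.

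Among the 4 regulators of signalling, Txnip, which binds thioredoxin and limits glucose uptake (chr3:96557957-96561883, plus strand), had the smallest p in AD mice. It measured 1166, 1031, 1253 and 1028 CPM with p38α and 1173, 1100, 1207 and 978 CPM without it in WT mice. The AD mice measured 932, 1001, 972 and 1034 CPM with p38α and 861, 988, 1024 and 825 CPM without it. The groups overlapped at their edges, and the log2 fold change was -0.23 (SE 0.07, unadjusted p = 0.00324, adjusted p = 0.150, limma). Rapgef5, an exchange factor for the small GTPase Rap (chr12:117516479-117759737, plus strand), measured 329, 353, 354 and 331 CPM in WT p38+/+ and 253, 304, 325 and 285 CPM in AD p38+/+ mice, which did not overlap (exact permutation test, p = 0.0286). Without p38α it measured 285, 316, 324 and 300 CPM in WT and 251, 318, 349 and 389 CPM in AD mice, which did. Rapgef5 was also lower in all WT p38KO than in all WT p38+/+ mice (exact permutation test, p = 0.0286). Its AD difference was -0.23 (adjusted p = 0.725) with p38α and 0.08 (adjusted p = 0.878) without it (limma).

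Other roles showed small differences in AD mice. Crybb1, a lens crystallin that microglia also express, had CPM of at least 113.7 in the WT p38+/+ mice and of at most 110.7 in the AD p38+/+ mice, without overlap (exact permutation test, p = 0.0286). Over both genotypes its log2 fold change was -0.36 (adjusted p = 0.275, limma). The secreted or secretory-pathway genes Olfml3 (-0.01), Sparc (-0.01) and Golm1 (0.01) had differences near 0, with 95% intervals that excluded a log2 change of 0.5. Of the 6 cytoskeletal or scaffold genes, 4 were below 0 and 0 had an unadjusted p under 0.05, among them the neuron navigators Nav2 (-0.33) and Nav3 (0.02) and the cortactin-binding relative Cttnbp2nl (-0.04).

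The 2 p38 genotypes gave separate views of the AD difference, with no mouse in common. With p38α, 29 of 36 members were lower in AD mice (median -0.15, beside 50.9% of all genes and a median of -0.01), 3 at an unadjusted p under 0.05 (2.42% of all genes) and 0 past the adjusted threshold (0.359% of all genes in either direction). The count of 3 rested on single libraries. It became 10 when WT p38+/+ mouse 2 was left out (1.99% of all genes). It was 5 without AD p38+/+ mouse 4 (1.85%) and 1 without AD p38+/+ mouse 1 (2.03%). With array weights it was 7 (3.89% of all genes). Without p38α, 26 of 36 were lower (median -0.12, beside 56.2% of all genes and a median of -0.04), 6 at an unadjusted p under 0.05 (5.80% of all genes) and 0 past the adjusted threshold (0.323%). That count was 3 without AD p38KO mice 1 and 4 (4.12% of all genes) and 10 with sex as a covariate (6.17%). All 4 AD mice lay below all 4 WT mice for 2 members with p38α (Crybb1 and Rapgef5) and for 1.87% of all genes. Without p38α this held for 3 members (Tmem119, Cd164 and Slc46a1) and for 2.33% of all genes, and 0 members did so in both genotypes. A log2 fold change below 0 in both genotypes was seen for 20 members, above 0 in both for 1 (Fcrls), and of opposite sign for 15, among them Hpgd (0.33 with p38α and -0.37 without it), Nav3 (-0.19 and 0.22) and Jam2 (-0.27 and 0.07). The interaction called 0 of 36 members and 0% of all genes past the adjusted threshold, and 1 member (Slc46a1) beside 3.92% of all genes at an unadjusted p under 0.05.

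**Figure D3:**
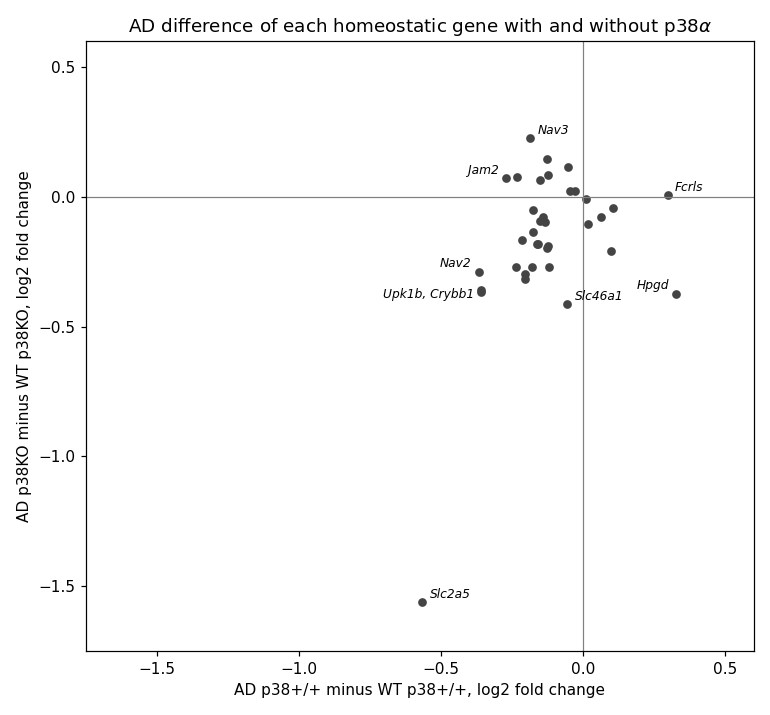
The AD difference of each of the 36 members with p38α (horizontal axis) and without it (vertical axis), as log2 fold changes on equal scales. Below 0 on both axes lie 20 of 36 points, with Slc2a5 far below, where WT p38KO mice 1 and 3 measured 1041 and 1016 CPM.

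The shift was also described mouse by mouse. Relative to the WT p38+/+ mean, the median deviation over the 36 members was -0.29, -0.10, -0.09 and -0.09 (log2) in the AD p38+/+ mice and -0.13, -0.13, -0.10 and -0.08 in the AD p38KO mice. It was 0.03, -0.10, 0.00 and 0.03 in WT p38+/+ and 0.05, -0.02, 0.05 and 0.02 in WT p38KO mice. WT p38+/+ mouse 2 therefore lay within the range of the AD mice, and AD p38+/+ mouse 1, the single female of its group, lay below all others. The number of members below the WT p38+/+ mean was 28, 22, 31 and 27 in AD p38+/+ and 26, 27, 27 and 23 in AD p38KO mice, against 15 to 19 in WT p38KO mice. WT p38+/+ mice had 17 to 21, but they set the mean, so their counts are no separate comparison. The same count over all genes was not made. In males alone the AD difference was below 0 for 29 members with p38α (3 against 3 mice) and for 30 without it (3 against 2 mice). The median over the members was -0.11 with p38α and -0.12 without it, beside -0.01 and -0.02 over all genes tested. The share of all genes below 0 in males was not computed. These males are part of the groups above, so the counts are no separate evidence.

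**Figure D4:**
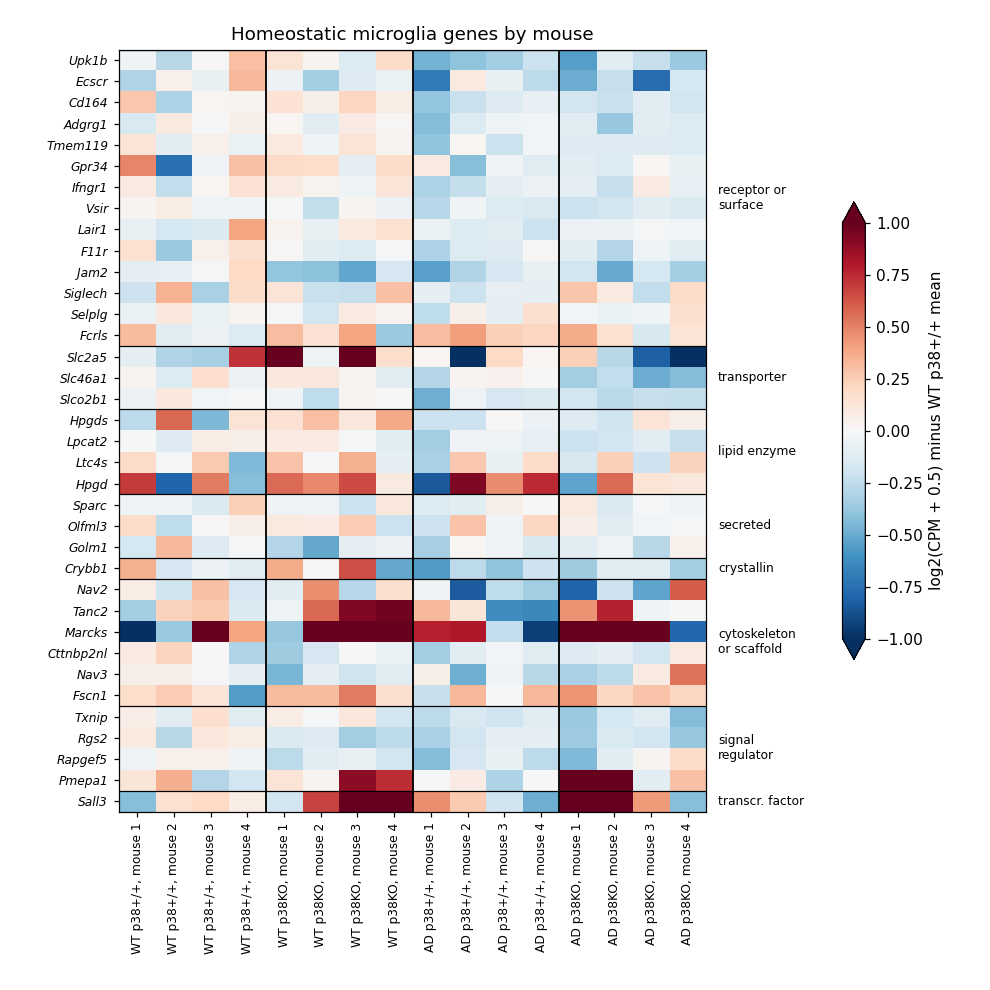
Deviation of each member from its WT p38+/+ mean, log2(CPM + 0.5), in each of the 16 mice, with genes ordered by role and colours saturated at -1 and 1. AD columns are pale blue for most genes, AD p38+/+ mouse 1 most of all with a median of -0.29, while Marcks, Tanc2, Pmepa1, Sall3, Slc2a5 and Hpgd change colour within groups.

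Genes of the DAM state were measured in the same libraries. Of 41 DAM genes tested, 31 rose in AD mice past the adjusted threshold and 0 fell, with a median log2 fold change of 0.87. Cst7, a protease inhibitor, had mean CPM of 11.2 ± 2.38 (WT) and 212 ± 126 (AD) with p38α, and of 10.9 ± 2.06 (WT) and 220 ± 59.5 (AD) without it (SD, n = 4 each). The summed DAM genes took 3.01 to 3.76% of WT libraries and 4.07 to 5.09% of AD libraries. AD p38+/+ mouse 1 had the highest DAM share (5.09%) and the lowest homeostatic share (4.75%), but AD p38KO mouse 1, with a DAM share of 5.05%, had the highest homeostatic share of its group (5.41%). These mice were the single females of their groups, and the males of both AD groups had DAM shares of 4.07 to 4.49%. The part of sex in these shares and of the DAM genes in the homeostatic differences was not tested.

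Other genes tied to microglial identity were compared as a separate list. Of 35 tested, 22 were below 0 in AD mice (median -0.03), with 1 that rose and 1 that fell past the adjusted threshold. Mef2a, a transcription factor, fell (log2 fold change -0.31, adjusted p = 0.0109), and Serpine2, a secreted protease inhibitor, rose (0.50, adjusted p = 0.00169, limma). The sorting marker P2ry12 had a log2 fold change of -0.19 (adjusted p = 0.405). Of 15 genes of TGF-β signalling tested, 8 were below 0 and 0 passed the threshold in either direction, while 4 were lower and 2 were higher by an unadjusted p under 0.05 (limma), beside 5.76% of all genes that were lower.

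With loss of p38α the members were split between the directions. Over both backgrounds (the p38 KO main effect), 17 members were below 0 and 19 above, with a median of 0.02. Past the adjusted threshold 0 of 36 members were called, beside 0.0791% of all genes, and at an unadjusted p under 0.05 there were 4 higher and 2 lower members, beside 5.90% of all genes in either direction. For 30 of the 36 members the 95% interval lay within a log2 change of 0.5 to either side of 0, and for 33 it excluded a log2 change of 1. In AD mice alone, 14 members were below 0 and 22 above with p38α lost. There 0 were called (0.0503% of all genes), and 2 had an unadjusted p under 0.05 (6.99% of all genes), Pmepa1 higher and Slc46a1 lower. In WT mice alone, 14 were below 0 and 22 above, 0 were called (0.00719% of all genes), and 3 had an unadjusted p under 0.05 (3.53% of all genes), Tanc2 higher and Jam2 and Rgs2 lower.

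Pmepa1, Tanc2, Sall3 and Marcks were higher on average without p38α and differed widely between p38KO mice of a group. Wide spread was not limited to p38KO mice. With p38α, Marcks ranged from 414 to 1798 CPM in WT and from 455 to 1513 CPM in AD mice. Tanc2 ranged from 183 to 359 CPM in AD p38+/+ mice. Pmepa1 (chr2:173224458-173276533, minus strand) measured 104.4, 124, 78.4 and 84.2 CPM with p38α and 106.01, 97.9, 179 and 161 CPM without it in WT mice. In AD mice the values were 96.6, 102, 77.7 and 96.1 CPM with p38α and 192, 203, 89.2 and 118.2 CPM without it. Tanc2, a scaffold protein (chr11:105589986-105929304, plus strand), measured 225, 335, 343 and 258 CPM with p38α and 278, 426, 545 and 559 CPM without it in WT mice. In AD mice the values were 359, 311, 186 and 183 CPM with p38α and 391, 487, 277 and 285 CPM without it. For both genes 2 or 3 p38KO mice of a group lay above all p38+/+ mice of that background and the rest among them. Sall3 (chr18:80966376-80986771, minus strand) measured 58.6, 87.7, 90.9 and 83.0 CPM with p38α and 69.0, 126, 175 and 184 CPM without it in WT mice. Levels in AD mice were 109.05, 94.9, 68.6 and 56.2 CPM with p38α and 187, 234, 106.3 and 58.7 CPM without it. WT p38KO mouse 1 and AD p38KO mice 3 and 4 lay among the p38+/+ mice of their background for Sall3, and the other p38KO mice above them. Marcks, an actin-regulating substrate of protein kinase C (chr10:37133375-37138920, minus strand), measured 414, 673, 1798 and 1145 CPM with p38α and 670, 2322, 2234 and 2262 CPM without it in WT mice. The AD mice measured 1496, 1513, 735 and 455 CPM with p38α and 2345, 1908, 1947 and 505 CPM without it. WT p38KO mouse 1 was the lowest of its group for Sall3, Marcks and Tanc2, and AD p38KO mouse 4 the lowest of its group for Sall3 and Marcks.

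The log2 fold changes for loss of p38α were 0.53 for Pmepa1 (SE 0.17, unadjusted p = 0.00634), 0.55 for Tanc2 (SE 0.18, unadjusted p = 0.00671), 0.70 for Sall3 (SE 0.26, unadjusted p = 0.0144) and 0.79 for Marcks (SE 0.38, unadjusted p = 0.0543). Their adjusted p lay between 0.651 and 0.834 (limma). Fscn1, which bundles actin (chr5:142960343-142973185, plus strand), measured 514, 543, 498 and 310 CPM with p38α and 568, 566, 654 and 510 CPM without it in WT mice. The AD mice measured 388, 571, 454 and 575 CPM with p38α and 620, 526, 554 and 527 CPM without it. Both pairs of groups overlapped, with a log2 fold change of 0.25 (adjusted p = 0.818, limma).

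**Figure D5:**
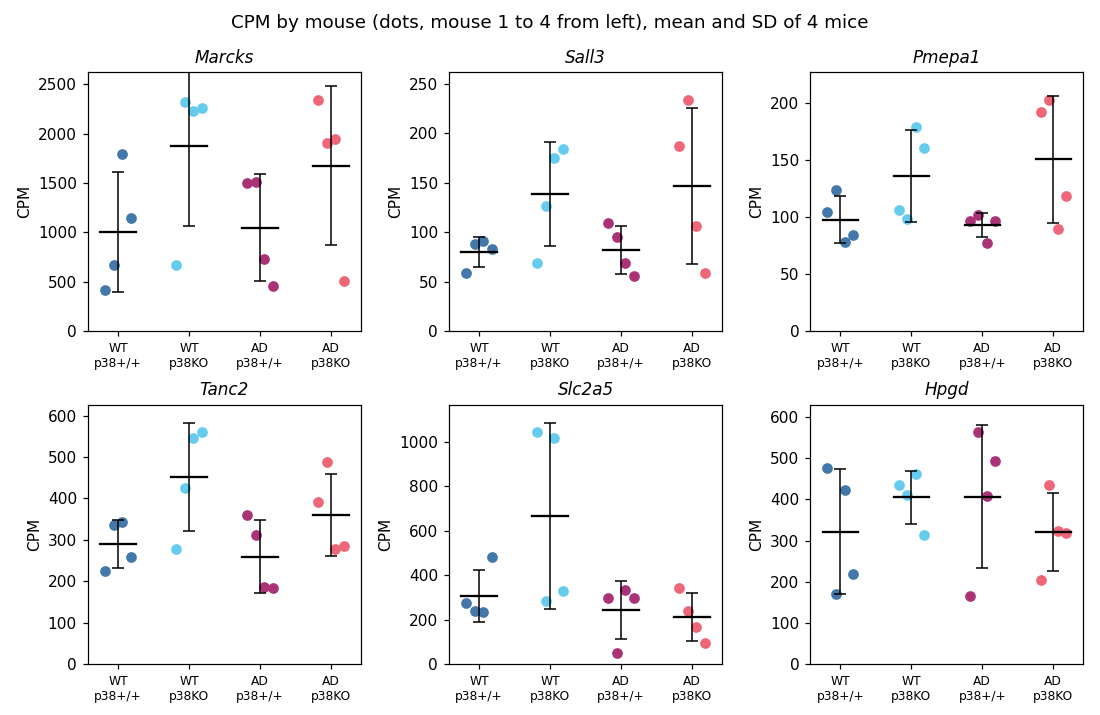
CPM of the 6 members with wide spread or the smallest p for loss of p38α, in each mouse by group, with mice 1 to 4 from left to right, the mean as a bar and the SD as whiskers. In p38KO mice Marcks, Sall3, Pmepa1 and Tanc2 differ widely between animals of a group, as with Marcks at 670 against 2234 to 2322 CPM in WT p38KO mice. Marcks also differs widely in WT p38+/+ mice, from 414 to 1798 CPM.

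Jam2 (chr16:84774123-84825928, plus strand) had the smallest p of the set for loss of p38α in WT mice. It measured 223, 226, 236 and 275 CPM in WT p38+/+ and 182, 180, 166 and 213 CPM in WT p38KO mice, which did not overlap (log2 fold change -0.37, SE 0.12, unadjusted p = 0.00519, adjusted p = 1.00, limma). In AD mice it measured 164, 195, 213 and 228 CPM with p38α and 211, 169, 212 and 189 CPM without it, which overlapped. Rgs2, which switches off G-protein signalling (chr1:143999338-144004161, minus strand), measured 991, 763, 998 and 978 CPM with p38α and 840, 848, 729 and 773 CPM without it in WT mice. In AD mice the values were 741, 811, 865 and 869 CPM with p38α and 720, 834, 812 and 713 CPM without it. WT p38+/+ mouse 2 was the sole mouse of its group within the range of the others. The log2 fold change of Rgs2 for loss of p38α was -0.22 in WT and -0.09 in AD mice (adjusted p = 1.00 and 0.914, limma). Lair1 was slightly higher in all 4 AD p38KO mice (910 to 936 CPM) than in all 4 AD p38+/+ mice (820 to 907 CPM, exact permutation test, p = 0.0286), with a log2 fold change of 0.09 (adjusted p = 0.927, limma). For loss of p38α, 1 member (Lair1) was thus without overlap in AD mice and 2 (Jam2 and Rapgef5) in WT mice. The share of all genes that did so was not computed, so these separations cannot be set against a background.

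The interaction named Nav3 beside Slc46a1, Jam2 and Rapgef5 as the members with the smallest p. Nav3, which binds microtubules (chr10:109681259-110456204, minus strand), measured 379, 380, 360 and 341 CPM with p38α and 266, 344, 317 and 336 CPM without it in WT mice. Levels in AD mice were 379, 260, 355 and 301 CPM with p38α and 292, 304, 386 and 531 CPM without it. Its AD difference was -0.19 with p38α and 0.22 without it, and its highest value came from AD p38KO mouse 4, the library with the fewest genes detected. All 4 had an adjusted p of 1.00 for the interaction (limma).

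Cx3cr1, the fractalkine receptor, is no member but lies at the locus that carries the recombinase, and it fell with p38KO by 1.13 on the log2 scale (adjusted p = 3.0e-08, limma). In WT mice its mean CPM were 8386 ± 633 (p38+/+) and 3720 ± 231 (p38KO), and in AD mice 6764 ± 778 (p38+/+) and 3189 ± 287 (p38KO; SD, n = 4 each). The loss of p38α and the insertion at Cx3cr1 cannot be told apart in these groups. The genes induced by cell dissociation were below 0 with p38KO for 14 of 16 (median -0.32), with 0 past the adjusted threshold and 3 lower at an unadjusted p under 0.05 (limma), and their part in the differences above was not tested.

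At the level of transcripts, 147 of the 172 transcripts of the 36 genes were tested among 34323. In AD mice 0 passed the adjusted threshold (0.379% of all transcripts), and 24 had an unadjusted p under 0.05 (9.13% of all transcripts), 22 of them lower. With p38KO 0 passed (0.166%), and 16 had an unadjusted p under 0.05 (7.39%), 11 of them higher. The main transcripts of Upk1b and Cd164 carried nearly all of the gene's CPM and differed in AD mice like the gene, by -0.36 (adjusted p = 0.0989) and -0.25 (adjusted p = 0.186, limma). With p38KO, transcripts were compared with their genes only for the 3 with the smallest unadjusted p (limma). All 3 had larger log2 fold changes than their genes, without passing the threshold. These were a coding transcript of Lair1 (ENSMUST00000086400, log2 fold change 0.30 against 0.07 for the gene), a retained-intron transcript of Rgs2 (ENSMUST00000134817, -0.49 against -0.16) and a processed transcript of Tanc2 (ENSMUST00000124367, 1.06 against 0.55), with adjusted p between 0.221 and 0.258 (limma).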

How the data were processed

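RNA of microglia sorted from 16 mice was sequenced (paired-end, 4 mice in each of 4 groups). Alignment by the authors was to mm10 with STAR, and quantification used Ensembl transcripts in Partek Flow (10.0.22.0828). The deposited values are CPM of 20267 genes and of 61144 transcripts, with 0.0001 CPM added to each. All columns were mapped to a mouse by their labels. Read counts were not used. Positions were given as 1-based intervals, by taking 1 from the end in the deposited table, which then matched GENCODE M21 for all 36 members.

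Values were taken as log2(CPM + 0.5). Features had to reach 1 CPM in 4 or more libraries (13912 genes, with 6355 set aside, and 34323 transcripts). All 16 libraries were fitted in 1 model of 4 groups with limma-trend (limma 3.58.1, R 4.3.3), two-sided, with Benjamini-Hochberg adjustment over all features, and a gene was called at an adjusted p under 0.05. For single genes an exact permutation test between groups of 4 was added. Python 3.11.15 (pandas 2.3.3, numpy 2.4.6, matplotlib 3.10.9) was used for descriptions and figures. The fit was tested on simulated data.

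Full values were given for Tmem119, Siglech and Gpr34, for the 4 members with the smallest p in each comparison and for any member called; Marcks, and in part the values of Slc2a5 and Hpgd, were added after their values were seen. The members, lists and tests were chosen with earlier results of these data known. Alternatives covered pseudocounts of 0.1 and 1 CPM, a filter of 5 CPM or none, median-ratio and quantile scaling, array weights, sex as a covariate, the animal number as a replicate block, each library left out in turn, and AD p38KO mice 1 and 4 left out together.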

Additional observations from a re-analysis of the deposited data

Results flagged for a closer look

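In each group of 4 mice, 1 mouse was looked for that lay far from the other 3, relative to the range of the group. Of 144 sets of a member in a group, 10 had such a mouse. Chance alone gives about 1 in 20, so the count is near that rate and is no result about the members. Marcks stood out in both p38KO groups, with WT p38KO mouse 1 at 670 CPM against 2234 to 2322 CPM, and AD p38KO mouse 4 at 505 CPM against 1908 to 2345 CPM. AD p38+/+ mouse 1 was low for Lpcat2 (1663 CPM against 1994 to 2063 CPM) and for Slc46a1 (177 CPM against 216 to 223 CPM). AD p38+/+ mouse 2 was low for Slc2a5 (50.7 CPM against 296 to 335 CPM) and for Siglech (1116 CPM against 1206 to 1220 CPM). In WT p38+/+ mice, mouse 2 was low for Rgs2 (763 CPM against 978 to 998 CPM) and mouse 4 for Fscn1 (310 CPM against 498 to 543 CPM). Gpr34 was low in WT p38KO mouse 3 (3905 CPM against 4717 to 4767 CPM), and Adgrg1 in AD p38KO mouse 2 (1544 CPM against 1828 to 1869 CPM). All 10 values were the lowest of their set, and no cause was tested.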

How the results depend on the processing

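The single call among the 36 members, Upk1b in AD mice, depended on the processing. The number of members called for the APP/PS1 main effect was 0 instead of 1 with a pseudocount of 0.1 CPM, no filter, median-ratio scaling, quantile scaling, the animal number as a replicate block, or AD p38KO mice 1 and 4 left out, and the cause was not tested. Leaving out 1 library gave 0 to 2 members, with 2 (Upk1b and Cd164) without WT p38+/+ mouse 2. Over all alternatives the log2 fold change of Upk1b lay between -0.41 and -0.29 and its adjusted p (limma) between 0.0150 and 0.198. Member transcripts called for the APP/PS1 main effect numbered 1 instead of 0 without AD p38KO mice 1 and 4, and 0 to 2 with 1 library left out, with 2 without WT p38+/+ mouse 2. In the other 6 comparisons 0 members were called under every alternative run. The median log2 fold change of the members for AD against WT stayed between -0.165 and -0.115 with p38α, -0.150 and -0.0917 without it and -0.150 and -0.105 over both. For loss of p38α the median, near 0, changed sign with single libraries left out: over both backgrounds it was -0.0130 without AD p38+/+ mouse 1 and -0.0146 without AD p38KO mouse 4, in AD mice -0.0216 without AD p38+/+ mouse 1, and in WT mice -0.00986 without WT p38+/+ mouse 2. Over all genes, the APP/PS1 main effect called 143, between 125 and 202 under other settings, and 95 to 182 with 1 library left out. The AD difference called 50 (29 with only the groups compared, 72 with array weights) with p38α and 45 (20 without AD p38KO mice 1 and 4, 68 with a sex covariate) without it. The p38 KO main effect called 11 (7 to 16, and 6 to 15 with 1 library left out), and the interaction 0, but 4 with no filter and 1 without WT p38+/+ mouse 4. Loss of p38α called 7 genes in AD mice (2 to 10 over all alternatives) and 1 in WT mice (1 to 3). The number of members below 0 in AD mice stayed between 26 and 33 for the main effect, 28 and 32 with p38α, and 25 and 29 without it. Neither scaling moved the median of all genes by over 0.1. Deviations of same-numbered mice correlated weakly, between -0.131 and 0.184 over 24 pairs. Mice of different numbers were not compared, so this check cannot decide whether animal numbers pair the mice. The replicate block gave Upk1b an adjusted p of 0.0632 (limma). Mouse 1 was female and mice 3 and 4 were male in every group, so the replicate block partly follows sex.

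With 4 mice a group, the 95% interval of the median member spans 0.252 (log2) to either side, and 0.178 for the APP/PS1 main effect. The median differences in AD mice were smaller, at -0.15 with p38α, -0.12 without it and -0.12 for the main effect. Most differences of this size could thus not be detected for single genes, and a missed threshold does not show equal levels. Each library came from a separate mouse, and the p-values measure the spread between these mice.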
